A study of Homo sapiens with 9 samples.

Results

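Aldehyde dehydrogenases are enzymes that oxidise aldehydes to acids, mostly with NAD+ or NADP+ as the electron acceptor. They were followed here in A549 cells as 10 genes: ALDH1A1, ALDH1A3, ALDH1B1, ALDH2, ALDH3A1, ALDH3A2, ALDH3B1, ALDH7A1, ALDH9A1 and ALDH18A1. The genes were taken by name, but with earlier results of these data known. Every probe set that the array annotation assigned to exactly 1 of them was kept. That gave 19 probe sets out of 41091 with a single gene, and 10 genes out of 19775; 0 further probe sets named a member together with another gene. A549 is an established human lung adenocarcinoma line. In each group RNA was taken 96 h after the start of treatment, and the groups were cells given Lipofectamine 2000 alone (mock), cells given 25 nM of a non-targeting siRNA (NS siRNA), and cells given 25 nM of an siRNA against Nrf2 (Nrf2 siRNA), with 3 biological replicates each. NRF2, encoded by NFE2L2, is a transcription factor of the antioxidant response, and the series' title gives the question as which genes it regulates in these cells.

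As background, reactive aldehydes arise when lipids are peroxidised and when alcohols, amines, amino acids and retinol are broken down, and they damage proteins and DNA. Members of the family divide this work by substrate and by compartment: the ALDH3 enzymes take aromatic and fatty aldehydes, ALDH2 and ALDH1B1 take acetaldehyde in mitochondria, the ALDH1A enzymes turn retinal into retinoic acid, and ALDH7A1, ALDH9A1 and ALDH18A1 act in the metabolism of lysine, of amines and of proline. Cells with active NRF2 are known to carry high levels of several detoxifying enzymes, and A549 cells carry a KEAP1 mutation that leaves NRF2 active.

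The 9 arrays had medians between 7.51 and 7.57 (log2) and a median SD of 0.0732 between replicates. NFE2L2, the siRNA target, was at 12.07, 11.92 and 11.98 (log2) in the 3 mock arrays, at 12.09, 12.03 and 12.15 after NS siRNA and at 10.12, 10.32 and 10.30 after Nrf2 siRNA, which left 27.9% of the NS siRNA level by 201146_at (limma, adjusted p = 3.09e-10). Its other probe sets gave 45.2% (1567013_at) and 92.9% (1567015_at, not called, adjusted p = 0.172), and the mean of the 3 gave a difference of -1.03 (log2) in place of -1.84. All 6 epithelial markers, among them KRT8 and KRT18, lay above the median of all probe sets (7.54). Of the 3 measured markers each of immune cells, fibroblasts and endothelium, 1 lay below it: PTPRC (mean 7.22), PDGFRB (7.34) and CDH5 (5.49). The others lay above it, CD3E at 8.43 and CD14 at 8.18, DCN at 8.13 and COL1A2 at 7.64, and PECAM1 at 8.91 and VWF at 7.75. All 4 measured markers of alveolar type 2 cells lay above it as well, from NKX2-1, a lung lineage factor, at 7.59 to SFTPC at 9.30. The summed log2 level of the 6 epithelial markers ran from 71.1 to 71.5 in mock, from 73.3 to 73.5 after NS siRNA and from 74.9 to 75.7 after Nrf2 siRNA. They did not move together against NS siRNA. KRT19 rose by 1.15 and CDH1 and EPCAM by 0.48 each, KRT7 fell by 0.17 (limma, adjusted p = 0.0291), and KRT8 and KRT18 did not pass. The sum of the 3 measured immune markers ran from 23.2 to 23.6 in mock, from 23.5 to 23.8 after NS siRNA and from 24.4 to 24.7 after Nrf2 siRNA. CD14 was the immune marker that rose, by 0.96 against NS siRNA, and the part of these markers in the results below was not tested. A lower level cannot be told apart from a smaller share of cells that express the gene. Only 1 siRNA against NRF2 was used, with no rescue, so its effects on other transcripts cannot be told apart from those of losing NRF2.

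The comparison of Nrf2 siRNA with NS siRNA asked which transcripts differ when NRF2 is silenced. ALDH3A1 fell 6.37-fold, ALDH3A2 2.08-fold, ALDH1B1 1.39-fold and ALDH1A3 1.14-fold, each by its probe set with the highest mean. In the other direction ALDH2 rose 1.44-fold, ALDH3B1 1.25-fold, ALDH7A1 1.16-fold and ALDH9A1 1.11-fold. ALDH1A1 and ALDH18A1 did not pass the threshold. Of the 19 probe sets, 14 passed (adjusted p below 0.05), 7 lower and 7 higher, where 41.7% of all probe sets passed, 21.5% lower and 20.2% higher. In 16 of the 19 the groups did not overlap, as in 49.7% of all. The median difference was 0.0098 over the 19 and -0.041 over all probe sets (log2), and the median size, sign left aside, 0.28 and 0.13. By genes, 8 of 10 passed, 4 lower and 4 higher, against 45.1% of all genes, 24.7% lower and 20.4% higher. At 2-fold or more 2 of the 19 probe sets were called, where 2.57% of all probe sets were. By highest-mean probe set, 0 of the 10 members lay below the median level of all probe sets. Because the members were chosen with earlier results known, these shares describe the list and are no test of the family.

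Against mock, 12 of the 19 probe sets passed, 7 lower and 5 higher, where 28.6% of all did, 13.3% lower and 15.2% higher. Groups did not overlap in 13 of the 19, against 39.2% of all, and 2 reached a 2-fold difference, against 1.33%. By genes, 7 of 10 passed, 4 lower and 3 higher, against 31.1% of all genes, 15.5% lower and 15.6% higher. Between the controls themselves, NS siRNA against mock, 10 probe sets passed, 4 lower and 6 higher, where 25.9% of all did, 13.5% lower and 12.4% higher. There 15 of the 19 did not overlap, against 39.7%, and 1 reached 2-fold, against 0.803%. By genes 6 of 10 passed, 2 lower and 4 higher, against 28.4% of all genes, 14.3% lower and 14.1% higher. The comparisons share arrays, so each gene is given below with its own values against both controls. ALDH3A1, ALDH3A2 and ALDH1B1 were lower after Nrf2 siRNA than in either control, ALDH1A3 and ALDH18A1 were set apart mainly by whether an siRNA had been given, and ALDH2 lay between the controls.

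**Figure D1:**
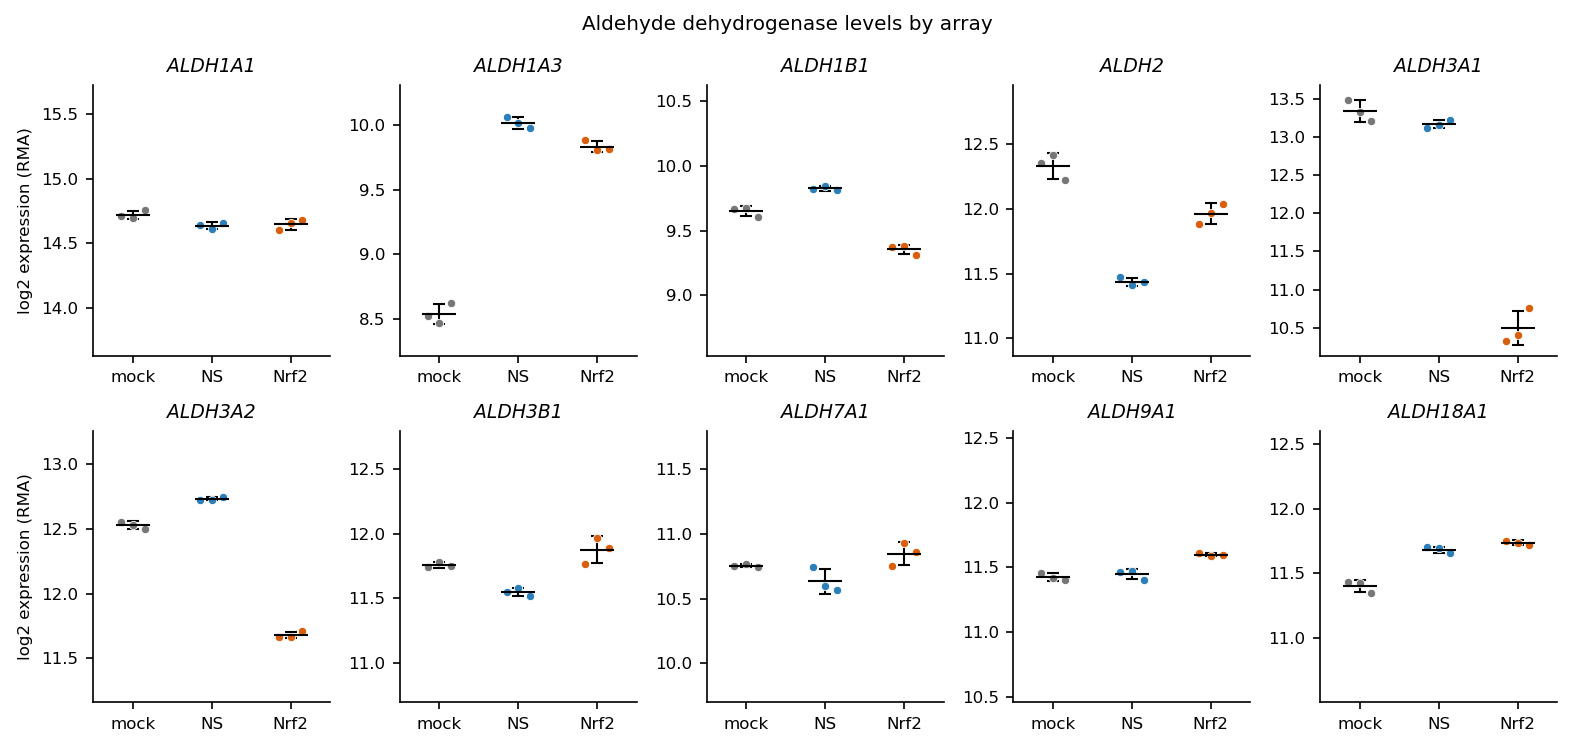
Log2 expression (RMA) of the 10 genes, each by its probe set with the highest mean, in mock, NS siRNA (NS) and Nrf2 siRNA (Nrf2) cultures. Points are single arrays, the bar and whiskers the mean ± SD of 3 arrays; axes differ in range between panels and do not start at 0. ALDH3A1 sits between 10.33 and 10.75 after Nrf2 siRNA and between 13.12 and 13.49 in the 6 control arrays.

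ALDH3A1 encodes a cytosolic enzyme that oxidises aromatic aldehydes and aldehydes from lipid peroxidation and is known as a major protein of the corneal epithelium. Its 1 probe set, 205623_at, was at 13.49, 13.32 and 13.21 (log2) in mock, at 13.12, 13.16 and 13.22 after NS siRNA and at 10.33, 10.40 and 10.75 after Nrf2 siRNA. The 3 Nrf2 siRNA arrays lay far below the 6 controls, and the 2 control groups overlapped. The difference was -2.67 ± 0.10 (SE, log2) against NS siRNA (adjusted p = 5.10e-10) and -2.85 ± 0.10 against mock (adjusted p = 6.56e-10), so that 15.7% and 13.9% of the control level were left. NS siRNA differed from mock by -0.17 ± 0.10 (adjusted p = 0.239), with a 95% interval from -0.39 to 0.04. Ordered over all 19775 genes from the lowest difference up, ALDH3A1 came 5th against NS siRNA and 4th against mock. The spread within the Nrf2 siRNA group, an SD of 0.23, was the widest of the 3 groups for this gene (0.14 in mock and 0.05 after NS siRNA).

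ALDH3A2 encodes the fatty aldehyde dehydrogenase of the endoplasmic reticulum, the enzyme lost in Sjögren-Larsson syndrome. By 202053_s_at it was at 12.56, 12.53 and 12.50 (log2) in mock, at 12.73, 12.73 and 12.75 after NS siRNA and at 11.67, 11.67 and 11.71 after Nrf2 siRNA. No 2 groups overlapped: NS siRNA was highest and Nrf2 siRNA lowest. The difference was -1.05 ± 0.04 (SE, log2) against NS siRNA (adjusted p = 1.39e-09) and -0.85 ± 0.04 against mock (adjusted p = 1.97e-08). The other probe sets gave smaller falls, -0.81 (202054_s_at) and -0.75 (210544_s_at) against NS siRNA and -0.73 by each against mock, and all 3 passed in both comparisons. Against mock, NS siRNA was higher by 0.21 ± 0.04 with 202053_s_at (adjusted p = 0.00349), whereas 202054_s_at (0.08) and 210544_s_at (0.01) did not pass; with the mean of the 3 probe sets the difference was 0.10 (adjusted p = 0.0756).

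ALDH3B1, which acts on medium- and long-chain aldehydes at membranes, went the other way. By 205640_at it was at 11.74, 11.78 and 11.75 (log2) in mock, at 11.55, 11.58 and 11.52 after NS siRNA and at 11.77, 11.97 and 11.89 after Nrf2 siRNA. The NS siRNA arrays were lowest, and the Nrf2 siRNA arrays overlapped with mock. The difference from NS siRNA was 0.33 ± 0.05 (SE, log2; adjusted p = 0.000342), and that from mock 0.12 ± 0.05 (adjusted p = 0.133). NS siRNA itself stood 0.21 below mock (-0.21 ± 0.05, adjusted p = 0.0137). With 211004_s_at the values were 0.28 against NS siRNA (adjusted p = 0.000991) and 0.09 against mock (adjusted p = 0.244), and -0.19 for NS siRNA against mock (adjusted p = 0.0214). That last call was lost without mock replicate 1 (adjusted p = 0.0822) or 2 (0.0613) and without NS siRNA replicate 2 (0.0667) or 3 (0.061), and with quantile normalization (0.0553). The third probe set, 1565731_at, had the opposite sign against NS siRNA, -0.13 ± 0.08 (adjusted p = 0.197). Without Nrf2 siRNA replicate 1 it passed as lower than both controls, at -0.22 against NS siRNA (adjusted p = 0.0172) and -0.20 against mock (0.0389), while 205640_at passed as higher than mock, at 0.17 (0.0261). The probe sets of ALDH3B1 therefore disagree, and its direction rests on 2 of 3.

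**Figure D2:**
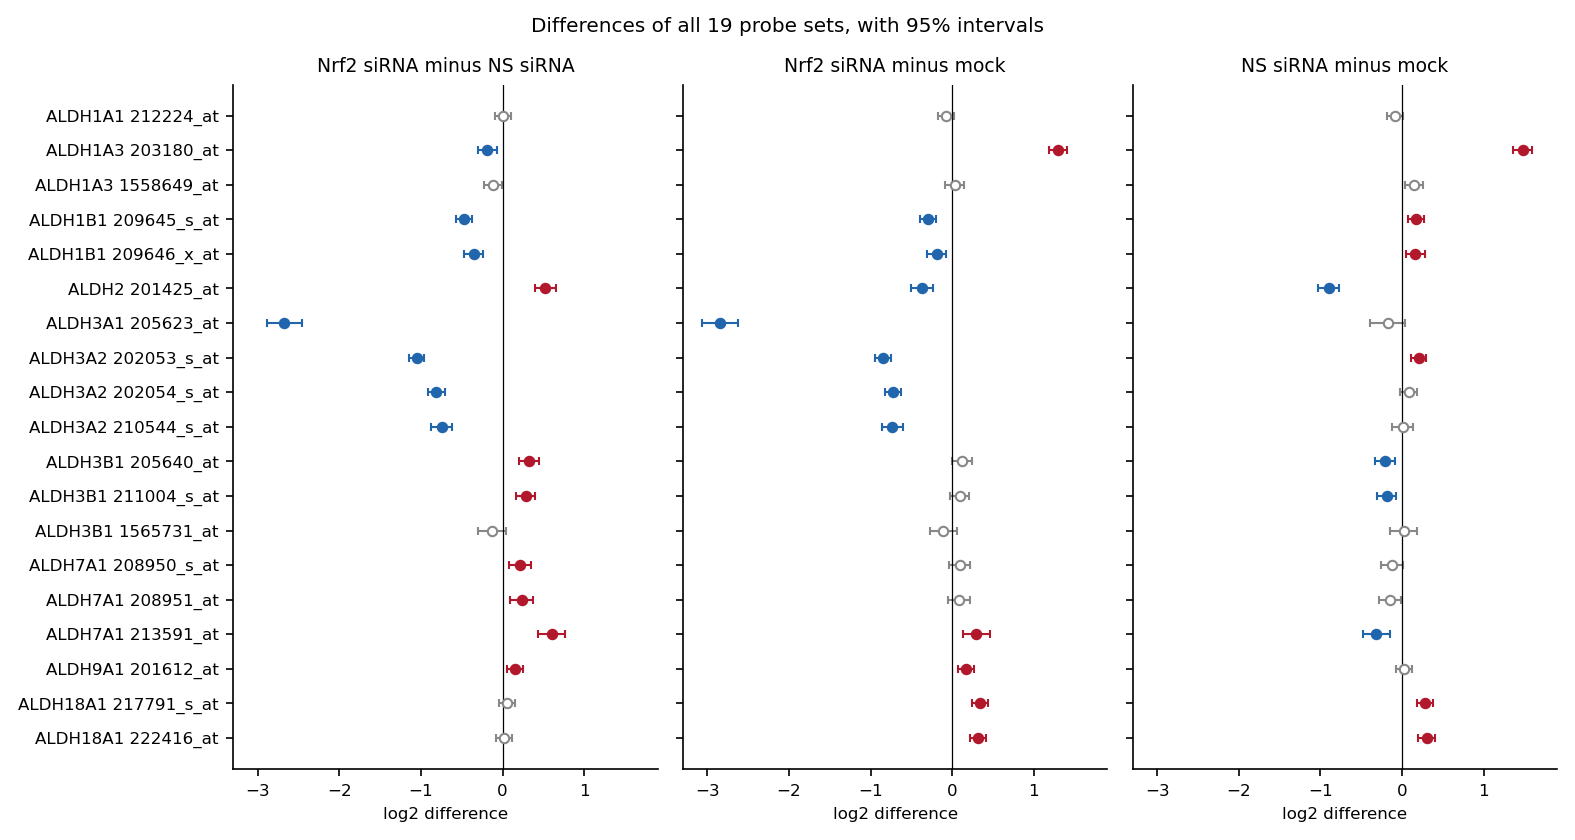
Log2 differences of the 19 probe sets in the 3 comparisons, with 95% intervals from the limma fit. Filled points passed an adjusted p of 0.05, blue lower and red higher; open grey points did not. The 3 probe sets of ALDH3A2 lie left of 0 against both controls, and ALDH1A3 by 203180_at lies at 1.30 and 1.48 in the comparisons with mock.

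The genes of the ALDH3A cluster lie close together on chromosome 17, so their neighbours in the RefSeq gene order (GRCh38.p14) were read as well; they were chosen after the values of ALDH3A1 and ALDH3A2 were seen. SLC47A2, a transporter gene between them, was dim (mean below the median of all probe sets) and differed by -0.23 ± 0.06 (SE, log2) against NS siRNA (adjusted p = 0.0108) and by -0.10 against mock (adjusted p = 0.256). Without NS siRNA replicate 3 the first of these had adjusted p = 0.0507. SLC47A1, on the far side of ALDH3A2, encodes an organic cation extruder and differed by -0.16 ± 0.05 against NS siRNA (adjusted p = 0.0123) and -0.46 ± 0.05 against mock (adjusted p = 7.78e-06). ULK2, an autophagy kinase gene beyond ALDH3A1, differed by -0.15 ± 0.06 against NS siRNA (adjusted p = 0.0575). Against mock it was at -0.20 (adjusted p = 0.019), which was not kept without mock replicate 2 (adjusted p = 0.0822) or 3 (0.0503) or Nrf2 siRNA replicate 1 (0.0767). Against NS siRNA ULK2 passed as lower in 7 of 18 alternative runs. Among these were quantile normalization (-0.22, adjusted p = 0.00371) and the mean of its probe sets (-0.25, adjusted p = 0.000291). The other neighbours did not all share this direction. SPECC1 was higher by 0.42 against NS siRNA (adjusted p = 6.89e-06) and by 0.16 against mock (adjusted p = 0.017), the latter not kept without mock replicate 1 (0.061) or 3 (0.0556) or Nrf2 siRNA replicate 1 (0.0568), with quantile normalization, or with the mean of its probe sets. AKAP10 was at -0.29 against NS siRNA (adjusted p = 0.00047) and at -0.03 against mock (adjusted p = 0.742). RNF112 (0.01 and 0.02) and MFAP4 (-0.06 and -0.07) passed against neither, although MFAP4 passed as lower than both without Nrf2 siRNA replicate 1 (-0.15 each, adjusted p = 0.0367 and 0.0452). The widest difference among these 7 neighbours was 1.38-fold, that of SLC47A1 against mock. The controls differed as well. NS siRNA against mock was at -0.30 for SLC47A1, 0.26 for AKAP10 and -0.26 for SPECC1 (limma, adjusted p = 0.000363, 0.00187 and 0.000802). The other neighbours did not pass between the controls.

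The mitochondrial enzymes differed from each other. ALDH1B1, which oxidises acetaldehyde and other short aldehydes, was at 9.66, 9.68 and 9.61 (log2) in mock, at 9.82, 9.85 and 9.81 after NS siRNA and at 9.37, 9.38 and 9.32 after Nrf2 siRNA by 209645_s_at. The groups did not overlap, with NS siRNA highest and Nrf2 siRNA lowest. The difference was -0.47 ± 0.05 (SE, log2) against NS siRNA (adjusted p = 2.52e-06) and -0.30 ± 0.05 against mock (adjusted p = 0.000275). NS siRNA stood 0.18 ± 0.05 above mock (adjusted p = 0.0109). The second probe set, 209646_x_at, whose name marks probes that can bind other transcripts, gave -0.36 (adjusted p = 0.000156), -0.19 (adjusted p = 0.0178) and 0.16 (adjusted p = 0.0423). Its call against mock was lost without mock replicate 1 (adjusted p = 0.0621) or 2 (0.0522) and without Nrf2 siRNA replicate 1 (0.0562) or 3 (0.0577). For NS siRNA against mock it was lost with equal array medians (adjusted p = 0.121), with only the 2 groups in the fit (0.0521), and without mock replicate 1 (0.0775), 2 (0.0814) or 3 (0.124), NS siRNA replicate 1 (0.161) or 2 (0.0948) and Nrf2 siRNA replicate 3 (0.0526).

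ALDH2 encodes the main mitochondrial acetaldehyde dehydrogenase, which also takes 4-hydroxynonenal, a product of lipid peroxidation. It was at 12.36, 12.42 and 12.23 (log2) in mock, at 11.47, 11.41 and 11.43 after NS siRNA and at 11.88, 11.97 and 12.04 after Nrf2 siRNA. The 3 groups did not overlap, and the Nrf2 siRNA arrays lay between the controls. ALDH2 was thus 0.53 ± 0.06 (SE, log2) above NS siRNA (adjusted p = 1.25e-05) and at -0.37 ± 0.06 relative to mock (adjusted p = 0.000428), so the sign of its difference depends on which control is used. The largest difference was between the controls: NS siRNA held 53.7% of the mock level (-0.90 ± 0.06, adjusted p = 3.15e-07).

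The retinal dehydrogenases ALDH1A1 and ALDH1A3 make retinoic acid, the ligand of the RAR nuclear receptors, and ALDH1A1 is also widely used as a marker of stem-like tumour cells. ALDH1A1 was at 14.71, 14.70 and 14.76 (log2) in mock, at 14.64, 14.61 and 14.66 after NS siRNA and at 14.60, 14.66 and 14.68 after Nrf2 siRNA. The Nrf2 siRNA and NS siRNA arrays overlapped, and both groups lay just below the mock arrays. Between the siRNAs the difference was 0.0098 ± 0.05 (SE, log2; adjusted p = 0.882), with a 95% interval from -0.09 to 0.11. Against mock it was -0.07 ± 0.05 (adjusted p = 0.287) for Nrf2 siRNA and -0.08 ± 0.05 (adjusted p = 0.228) for NS siRNA; with trended robust variances both passed (adjusted p = 0.0367 and 0.02). These levels are close to the highest value on any array, 15.06, where array signals flatten and differences can be understated.

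ALDH1A3 changed mainly between mock and both siRNA groups. By 203180_at it was at 8.53, 8.47 and 8.62 (log2) in mock, at 10.06, 10.02 and 9.97 after NS siRNA and at 9.88, 9.80 and 9.81 after Nrf2 siRNA. The mock arrays lay well below all 6 siRNA arrays, and Nrf2 siRNA lay slightly below NS siRNA with no overlap. NS siRNA was 2.79-fold above mock (1.48 ± 0.05 SE, log2, adjusted p = 2.01e-09) and came 14th from the top of 19775 genes in that comparison. Nrf2 siRNA was 2.45-fold above mock (1.30 ± 0.05, adjusted p = 2.66e-09). Against NS siRNA it was lower by a much smaller amount, -0.18 ± 0.05 (adjusted p = 0.0137), and this call was lost without NS siRNA replicate 1 (-0.16, adjusted p = 0.0524). The second probe set, 1558649_at, lay below the median of all probe sets at 6.36 to 6.63 and passed in none of the 3 comparisons (-0.12, 0.03 and 0.15, with adjusted p = 0.0929, 0.736 and 0.0583). With the mean of both probe sets ALDH1A3 stood 0.81 above mock after NS siRNA and 0.66 after Nrf2 siRNA (log2), and both still passed.

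The remaining members act in amino acid and amine metabolism. ALDH7A1, antiquitin, oxidises the semialdehyde of lysine breakdown and betaine aldehyde. By 208950_s_at it was at 10.75, 10.77 and 10.74 (log2) in mock, at 10.74, 10.60 and 10.56 after NS siRNA and at 10.75, 10.93 and 10.86 after Nrf2 siRNA. The Nrf2 siRNA arrays lay above NS siRNA by a narrow margin and overlapped with mock. Against NS siRNA the difference was 0.21 ± 0.06 (SE, log2; adjusted p = 0.0126), and leaving out NS siRNA replicate 3 (0.18, adjusted p = 0.0567) or the second Nrf2 siRNA array (0.17, 0.0547) ended the call. The other probe sets were higher too, by 0.23 (208951_at, adjusted p = 0.00934) and by 0.60 (213591_at, adjusted p = 2.84e-05). Against mock only the dim 213591_at, with a mean of 7.39, passed as higher (0.29, adjusted p = 0.0108), and the others were at 0.09 each. With the mean of the 3 probe sets ALDH7A1 was 0.35 above NS siRNA and passed against mock too (0.16, adjusted p = 0.0341), as did NS siRNA against mock (-0.19, adjusted p = 0.0132).

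ALDH9A1 oxidises aminobutyraldehydes and takes part in carnitine synthesis. It was at 11.46, 11.41 and 11.40 (log2) in mock, at 11.47, 11.47 and 11.40 after NS siRNA and at 11.61, 11.59 and 11.59 after Nrf2 siRNA. All 3 Nrf2 siRNA arrays lay above all 6 controls, and the controls overlapped. The difference was small, 0.15 ± 0.04 (SE, log2; adjusted p = 0.0169) against NS siRNA and 0.17 ± 0.04 (adjusted p = 0.0109) against mock. Without NS siRNA replicate 3 the first was 0.13 (adjusted p = 0.0654). NS siRNA and mock differed by 0.02 ± 0.04 (adjusted p = 0.761).

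ALDH18A1 encodes the enzyme of the first steps from glutamate to proline; it belongs to the family by sequence but is a reductase with a kinase domain. By 217791_s_at it was at 11.43, 11.42 and 11.35 (log2) in mock, at 11.70, 11.69 and 11.66 after NS siRNA and at 11.75, 11.74 and 11.72 after Nrf2 siRNA. The mock arrays lay below all 6 siRNA arrays. NS siRNA was above mock by 0.28 ± 0.05 (SE, log2; adjusted p = 0.00046) and Nrf2 siRNA by 0.34 ± 0.05 (adjusted p = 9.78e-05), and 222416_at gave 0.30 and 0.32. Between the siRNAs the difference was 0.05 ± 0.05 (adjusted p = 0.365), with a 95% interval from -0.04 to 0.15, although the 3 arrays of each did not overlap by this probe set.

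To show the sequence next to the members that fell against both controls and next to ALDH1A3, the 250 bases before the transcription start were read from RefSeq (GRCh38.p14). The table used held 10 such windows for 8 of the 10 genes, and ALDH2 and ALDH3A1 were not among them. They are printed 5′ to 3′ along the gene's strand, and capitals mark CCAAT or its reverse complement, a common promoter element that was chosen after the windows were seen; for ALDH3A2 the more upstream of its 2 starts is shown, whose window holds no CCAAT.
ALDH3A2, chr17:19647886-19648135 (+ strand): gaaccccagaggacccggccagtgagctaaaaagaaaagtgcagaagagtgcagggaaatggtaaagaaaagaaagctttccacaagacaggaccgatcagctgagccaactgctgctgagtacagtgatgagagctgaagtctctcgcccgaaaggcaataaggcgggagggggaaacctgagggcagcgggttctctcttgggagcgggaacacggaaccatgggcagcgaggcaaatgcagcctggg
ALDH1B1, chr9:38392452-38392701 (+ strand): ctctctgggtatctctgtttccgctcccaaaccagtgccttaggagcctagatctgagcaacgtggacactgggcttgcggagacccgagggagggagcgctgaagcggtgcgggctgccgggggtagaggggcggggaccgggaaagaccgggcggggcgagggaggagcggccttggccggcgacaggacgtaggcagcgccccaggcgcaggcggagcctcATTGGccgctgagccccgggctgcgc
ALDH1A3, chr15:100879581-100879830 (+ strand): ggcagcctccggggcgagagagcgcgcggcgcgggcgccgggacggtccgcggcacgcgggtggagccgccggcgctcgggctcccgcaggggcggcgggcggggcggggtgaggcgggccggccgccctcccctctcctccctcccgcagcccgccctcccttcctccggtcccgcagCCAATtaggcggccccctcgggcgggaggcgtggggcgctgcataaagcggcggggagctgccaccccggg
The window of ALDH1B1 is rich in G and C (70.4%), that of ALDH1A3 more so (82.4%), and the printed window of ALDH3A2 less (55.6%). The window of the other ALDH3A2 start, not printed, has 73.2% G and C and holds a CCAAT that begins 30 bases before the start. TGACNNNGC, the core of the antioxidant response element through which NRF2 acts, was searched on both strands. It was found in 0 of the 10 windows of these genes, against 10.9% of the 35116 promoter windows in the table. CCAAT, also on both strands, was found in 5 of 10 windows against 32% of all. A missing match says only that these letters are not within 250 bases of the start.

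The 5 genes whose profile over the 9 arrays was nearest to ALDH3A1 were F2RL2, PTGR1, NMRAL2P, HMOX1 and TRIM16. Nearness was the root mean square difference on the log2 scale after each gene was centred on its own mean, and it ran from 0.153 for F2RL2, a protease-activated receptor gene, to 0.23 for TRIM16. PTGR1 (0.179) encodes a reductase of alkenals and prostaglandins, and HMOX1 (0.208) the heme-degrading oxygenase. Their differences ran from -2.35 (TRIM16) to -2.78 (F2RL2) against NS siRNA and from -2.38 to -3.06 against mock (log2). With the mean of its probe sets F2RL2 differed less, by -2.09 against NS siRNA and -2.30 against mock. PTGR1 differed slightly more by that measure, by -2.64 and -2.55. For ALDH1A1 the nearest profiles were those of other genes that hardly varied, with HSPA5, an endoplasmic reticulum chaperone gene, first at 0.0193.

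**Figure D3:**
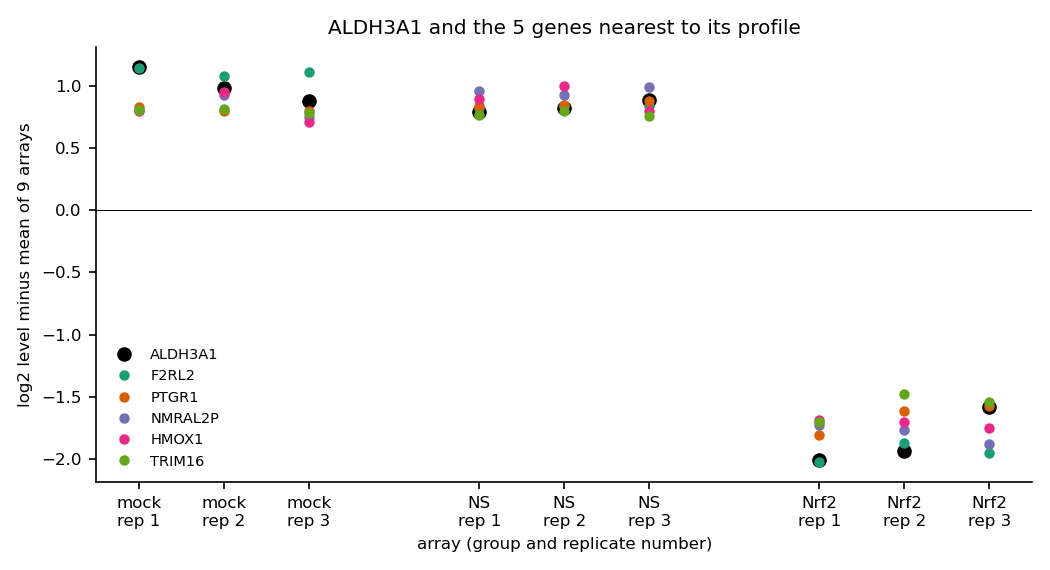
Log2 level minus the gene's own mean over the 9 arrays, for ALDH3A1 (large black points) and the 5 genes with the nearest profiles, by array; the groups are mock, NS siRNA (NS) and Nrf2 siRNA (Nrf2). ALDH3A1 runs from 0.788 to 1.15 in the 6 control arrays and from -2.00 to -1.58 after Nrf2 siRNA. The other 5 share this split because they were chosen for their nearness over the same arrays.

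The pathways around these enzymes were read from 8 lists of other genes, each gene by its probe set with the highest mean; 67 of 78 entries were measured. In all, 20 fell and 17 rose against NS siRNA, and 15 fell and 10 rose against mock, where 45.1% and 31.1% of all genes passed. Of all genes 24.7% were lower and 20.4% higher against NS siRNA, and 15.5% and 15.6% against mock. The lists were chosen with earlier results of these data known, so these counts are no test of a pathway. The list of reductases that convert aldehydes, carbonyls and alkenals held 7 measured genes. All 7 fell against each control, where 24.7% of all genes were lower against NS siRNA and 15.5% against mock. The list median was -0.95 against NS siRNA and -1.17 against mock, where the medians of all genes were -0.055 and -0.019 (log2). PTGR1 fell by 2.52 on the log2 scale against NS siRNA and CBR3 and CBR1, carbonyl reductases, by 1.34 and 0.95 (adjusted p = 2.31e-11, 5.60e-10 and 1.29e-08).

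Of the 9 other aldehyde dehydrogenase genes 1 fell and 2 rose against NS siRNA, with a median of -0.074. ALDH6A1, which oxidises methylmalonate semialdehyde in valine breakdown, was at 8.45 ± 0.03 (SD, n = 3, log2) after NS siRNA, at 8.93 ± 0.01 in mock and at 9.60 ± 0.16 after Nrf2 siRNA. It rose by 1.15 ± 0.07 (SE) against NS siRNA (adjusted p = 3.07e-08) and by 0.68 against mock (adjusted p = 7.69e-06), and 4 of its 5 probe sets passed in that direction against NS siRNA. ALDH16A1 fell by 0.52 ± 0.10 against NS siRNA (adjusted p = 0.000837) and by 0.80 against mock (adjusted p = 4.69e-05). ALDH4A1, the enzyme of proline breakdown after PRODH, was like ALDH2 lowest after NS siRNA: it stood at 0.31 against NS siRNA (adjusted p = 0.00763) and at -0.18 against mock (adjusted p = 0.112), the latter passing without Nrf2 siRNA replicate 3 (-0.25, adjusted p = 0.0391) and with quantile normalization (-0.21, adjusted p = 0.0466).

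Around ALDH18A1, 5 genes of proline and glutamate metabolism were measured. Against NS siRNA 4 rose and 1 fell (median 0.28), where 20.4% of all genes were higher and 24.7% lower. Against mock 2 rose and 1 fell (median 0.073), where 15.6% of all genes were higher and 15.5% lower. PRODH, proline dehydrogenase, was at 8.03, 7.89 and 8.08 (log2) in mock, at 7.89, 8.08 and 8.02 after NS siRNA and at 9.28, 9.05 and 9.24 after Nrf2 siRNA, a rise of 1.19 against each (adjusted p = 5.08e-08 and 1.15e-07). GLUD1, glutamate dehydrogenase, rose by 0.33 and 0.29 (adjusted p = 4.56e-05 and 0.000224). The name of the GLUD1 probe set used marks probes that can bind other transcripts. PYCR3, a pyrroline-5-carboxylate reductase, was at 0.28 against NS siRNA (adjusted p = 0.0123), a call that ended on leaving out NS siRNA replicate 3 (0.24, 0.0569) or the second Nrf2 siRNA array (0.25, 0.0511). Against mock PYCR3 was at 0.07 and was not called, with adjusted p of 0.0822 or more in every alternative run.

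Around ALDH9A1 and ALDH2, the list of polyamine and amine oxidation held 12 genes, of which 3 fell and 4 rose against NS siRNA (median -0.00045). MAOB, a monoamine oxidase that yields aldehydes, rose by 1.09 ± 0.06 (SE, log2) against each control (adjusted p = 1.72e-08 and 3.89e-08); 2 of its 3 probe sets had that sign against NS siRNA, 1 of them called, and 1 of 3 against mock, and with their mean the differences were 0.38 and 0.34. ODC1, ornithine decarboxylase, fell by 0.77 against NS siRNA and 0.24 against mock (adjusted p = 1.13e-07 and 0.00356). AMD1, which makes the aminopropyl donor, was 0.57 higher than NS siRNA and at -0.19 relative to mock (adjusted p = 6.93e-07 and 0.00731), so like ALDH2 it lay between the controls.

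Around the retinal dehydrogenases, 6 genes of retinoic acid handling were measured, of which 3 fell and 1 rose against NS siRNA (median -0.33). STRA6, the retinol importer, rose by 0.83 ± 0.06 (SE, log2; adjusted p = 2.31e-07) with 3 of 3 probe sets of that sign, 1 of them called. CYP26A1, which clears retinoic acid, fell by 0.69 ± 0.05 (adjusted p = 4.15e-07), and RARB, a retinoic acid receptor, by 0.73 ± 0.07 (adjusted p = 1.32e-06). RARB had 5 of 5 probe sets of that sign, 3 of them called, and 4 of 5 against mock. When probe sets were averaged the differences from NS siRNA were smaller, -0.36 for RARB and 0.36 for STRA6. Against mock, CYP26A1 was at 0.07 (adjusted p = 0.416), RARB held 50% of the mock level by 205080_at (adjusted p = 1.67e-07) with a difference of -0.45 by the mean of its probe sets, and STRA6 was at 0.19 (adjusted p = 0.0294); the STRA6 call against mock was lost without mock replicate 1 (adjusted p = 0.0925) or 3 (0.106) and Nrf2 siRNA replicate 2 (0.0648) or 3 (0.117). Relative to mock, NS siRNA held CYP26A1 at 0.76 and STRA6 at -0.63 (adjusted p = 5.51e-07 and 7.03e-06). The mean of its probe sets put STRA6 at -0.19. ALDH1A3 had means of 8.54 in mock, 10.02 after NS siRNA and 9.83 after Nrf2 siRNA by 203180_at. A link between ALDH1A3 and these genes was not tested. Upstream, 13 alcohol and retinol dehydrogenases were measured, and 3 fell and 3 rose against NS siRNA (median 0.023). DHRS3, a retinal reductase, rose by 0.88 against NS siRNA (adjusted p = 2.20e-08) and was at 0.08 against mock (adjusted p = 0.255). RDH10, which makes retinal from retinol, rose by 0.81 and 0.83 against the 2 controls (adjusted p = 7.19e-08 and 1.28e-07), 3 of its 4 probe sets having that sign, and by 0.46 and 0.51 with their mean. SDR16C5, below the median of all probe sets, fell by 0.32 against NS siRNA (adjusted p = 0.000569). It did not pass against mock, at -0.10 (adjusted p = 0.211), and those groups overlapped.

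Around ALDH3A2, the list of fatty aldehyde and sphingolipid genes held 8 measured members, 1 lower and 3 higher against NS siRNA (median -0.087). SPHK1, a sphingosine kinase, fell by 0.32 against NS siRNA and 0.53 against mock (adjusted p = 0.000136 and 2.75e-06). PHYH, the first enzyme of phytanic acid breakdown, was 0.32 above NS siRNA (adjusted p = 0.000221) and at -0.05 against mock (adjusted p = 0.541), and SGPP1, a sphingosine phosphate phosphatase, was higher by 0.23 against each (adjusted p = 0.00411 and 0.00523). Around ALDH7A1, 7 genes of lysine and choline breakdown were measured, with 1 lower and 0 higher against NS siRNA (median -0.014) and 0 called against mock, where limma gave 31.1% over all genes. The 1 was CHDH, choline dehydrogenase, at -0.22 (adjusted p = 0.0447), with groups that overlapped. That call was kept only on leaving out NS siRNA replicate 1 or Nrf2 siRNA replicate 3; leaving out any other array gave adjusted p from 0.0577 to 0.191, and without NS siRNA replicate 3 the difference was -0.12. BHMT at -0.16 and AASS at 0.12, the entry enzyme of lysine breakdown, did not pass against NS siRNA (adjusted p = 0.0719 and 0.307). BHMT passed without mock replicate 2 (adjusted p = 0.0202), and AASS without Nrf2 siRNA replicate 2 (0.22, adjusted p = 0.0365).

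**Figure D4:**
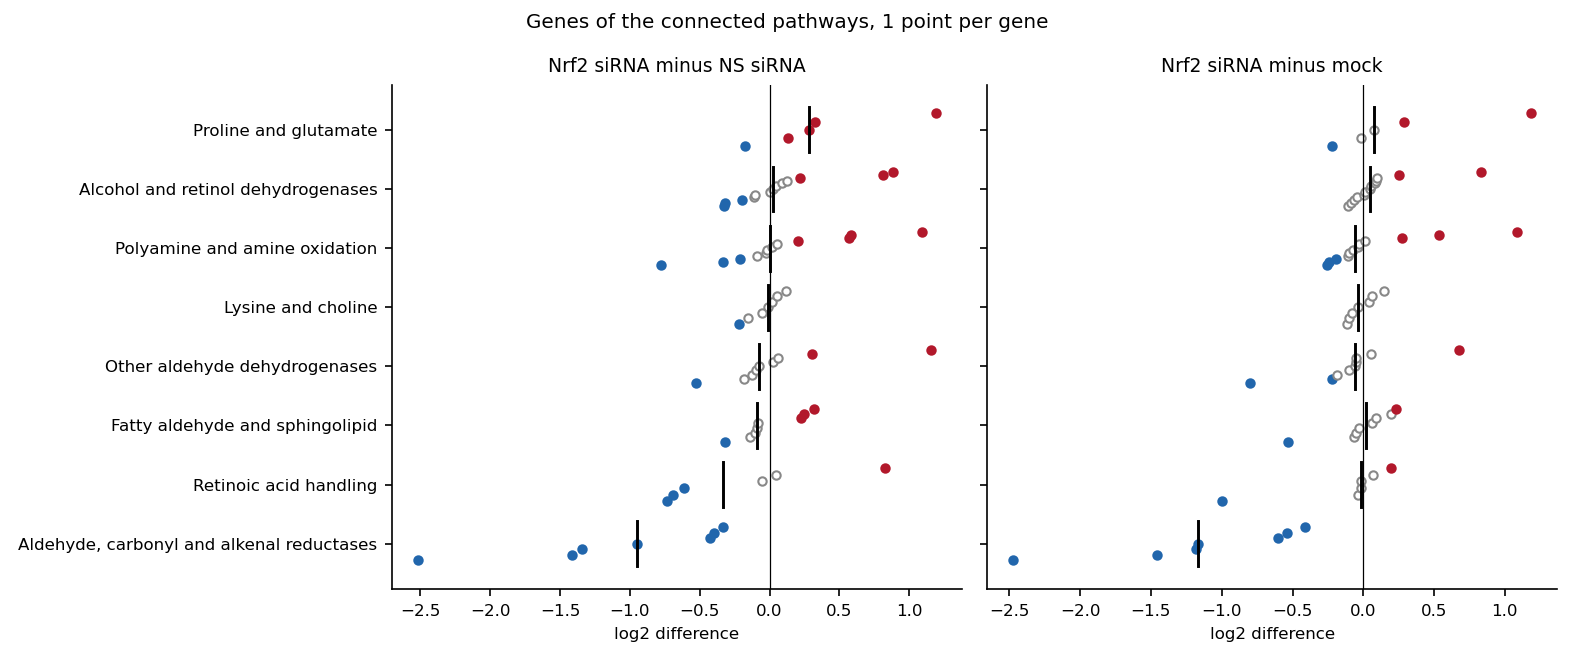
Log2 differences of the 67 measured genes of the 8 connected lists, 1 point per gene, for Nrf2 siRNA against NS siRNA and against mock. Filled points passed an adjusted p of 0.05, blue lower and red higher; the black bar is the median of the list. The 7 reductases all lie left of 0 in both panels, and the other lists spread to both sides.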

How the data were processed

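Total RNA was labelled as biotinylated cRNA and read on an oligonucleotide array, per the labels' protocols. The deposited values are log2 levels made by the authors with RMA, which includes normalization between arrays, per the submitters' processing notes; neither version nor settings are named in the sources used here. The 9 columns were matched by accession and grouped by title; 0 were left unused. The 62 control, 1801 multi-gene and 11721 unnamed probe sets stayed out. Symbols were updated by Entrez identifier for 41037 of 41091 probe sets.

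All differences came from 1 fit with limma 3.58.1 in R 4.3.3 (lmFit, eBayes; 6 residual and 6.2 prior degrees of freedom) over 9 arrays and 41091 probe sets, two-sided, with Benjamini-Hochberg adjustment over all of them and a threshold of 0.05. Folds were taken back from log2; SD is over 3 arrays, SE is the model's, and a 95% interval is the model's for 1 probe set. A gene stood by its probe set with the highest mean. Precision is limited by having 3 arrays a group. With nothing on separate cultures beyond the label of biological replicate, p-values measure the spread between these arrays. The named genes were every member, NFE2L2, in each list the 3 genes of lowest adjusted p (Nrf2 siRNA against NS siRNA), and the 5 nearest profiles. Members and lists were chosen with earlier results of these data known. The fit was tested on simulated data with 200 of 41091 probe sets changed. It recovered 100% of those changed 2-fold, 89.6% at 1.41-fold and 16.7% at 1.19-fold, with 3 false calls. In the data 41.7% of probe sets passed against NS siRNA, so recovery there can differ from that in the simulation. Alternatives were equal array medians, quantile normalization, a filter on dim probe sets, 1 or the mean probe set per gene, trended robust variances, 2-group fits, a replicate block, each array left out, and a threshold of 0.01. Scan dates and detection calls were not used. Figures used matplotlib 3.10.9.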

Additional observations from a re-analysis of the deposited data

How the results depend on the processing

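Of 162 recomputed counts of called probe sets or genes, 150 stayed within 1.5 times the reported count, and 0 single values of the named genes changed sign while called. The 12 that moved came from testing fewer features or from the stricter threshold. With 1 probe set per gene, 8, 7 and 6 of the 10 aldehyde dehydrogenase genes passed when Nrf2 siRNA was set against NS siRNA, then against mock, and when NS siRNA was set against mock, and 9422, 6530 and 6082 of all 19775 genes. Averaging the probe sets of each gene, 8 and 6 of 10 passed in the first and the last of these, and 9480, 6401 and 5807 of all genes. At an adjusted p below 0.01, 6 of the 19 probe sets passed for NS siRNA against mock, where 7174 of all probe sets (17.5%) did. Leaving out 1 array at a time gave 12 to 15, 11 to 13 and 8 to 11 of the 19, 14797 to 16970, 9814 to 11545 and 8827 to 10912 of all probe sets, and 32 to 37, 23 to 26 and 15 to 22 of the 67 connected genes. By probe set, 15, 12 and 10 of the 19 kept their side of the threshold in every alternative run.

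Same-numbered arrays were at most weakly alike (r of their deviations from -0.188 to 0.189, over 0.1 in 5 of 9 pairs). The same number gave the highest r in 10 of 18 comparisons, so a weak pairing was not settled. With the replicate number as a block 14, 12 and 11 of the 19 passed, and 17508, 12046 and 10993 of all probe sets; ALDH1A3 by 1558649_at was the added call (adjusted p = 0.0456). Calls near the threshold rest on 3 arrays a group, and levels of ALDH1A1 lie near the top of the scale.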
